A study of Mus musculus with 15 samples.

Results

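The aminoacyl-tRNA synthetase genes comprised 36 members, 20 encoding cytosolic and 16 encoding mitochondrial enzymes, out of 25292 genes in the count table. They were chosen by gene symbol, with the GENCODE M21 annotation used to match symbols to the deposited identifiers, and all 36 were found and carried enough reads to be tested. Mars1 carries the older symbol Mars in that annotation. Dars, Gars, Kars and Qars had no mitochondrial partner among the members. Classes follow the genes listed, so a member counted as cytosolic may also serve the mitochondrion, which was not measured. Poly(A) RNA of C57/Bl6J mouse embryonic pancreas was sequenced in 15 libraries, 3 in each of 5 groups, and each library pooled organs or explants from up to 3 embryos. Pancreata were taken at 14.5 days post coitum (dpc) from wild-type embryos (wt) or from embryos labelled S1pr2 null, an allele the study describes as disrupted in the first exon of S1pr2, a receptor gene for the signalling lipid sphingosine-1-phosphate, by a Neo cassette. Wild-type explants of that stage spent 2 days in air-liquid interface culture in standard medium (control), with 15 μM JTE013, an S1pr2 antagonist (JTE), or with 15 μM JTE013 and 50 ng/ml connective tissue growth factor (JTE + CTGF). The methods name dorsal buds as the starting tissue of explants.

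A synthetase joins one amino acid to its tRNA, so that the ribosome can read each codon as the right residue. Separate nuclear genes serve the cytosol and the mitochondrion for most amino acids, and several cytosolic enzymes sit together in the multisynthetase complex on the scaffold proteins Aimp1, Aimp2 and Eef1e1. Uncharged tRNA activates the kinase Gcn2 (Eif2ak4), and phosphorylated eIF2 then favours translation of the transcription factor Atf4, whose known targets include cytosolic synthetase genes. Acinar cells of the pancreas are known for their high rate of protein synthesis.

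Depth ranged from 11402804 to 13828737 assigned reads per library, and cytosolic members held between 553 and 9502 reads in a library. The mitochondrial members other than Lars2 held between 93 and 1330. The pancreatic label was met by all 5 epithelial markers examined (Pdx1, Sox9, Nkx6-1, Epcam and Cdh1), whose summed normalised read count lay between 16061 and 22444 in every library. S1pr2 itself was higher in the libraries labelled null, with normalised read counts of 1458, 1263 and 1354 against 772, 762 and 762 in wt, which goes against the label. They are named by the label throughout, and their directions depend on it. Counts per gene do not show from which exons reads came or whether protein was made, so that S1pr2 counts are a limited check of this insertion allele. The same libraries had acinar marker sums of 24840 to 27278 against 74003 to 126070 in wt, and endocrine sums of 9850 to 11746 against 20755 to 23680. The 6 erythroid markers, haemoglobin genes and Alas2, summed to 169 to 2240 normalised reads in explants and to 12572 to 19287 in freshly taken pancreata. The library JTE 3 stood apart, with a chi-square of 16.2 and 21.8 per gene against JTE 1 and JTE 2, whereas other pairs of libraries within a group lay between 2.26 and 9.60. In bulk tissue, fewer cells of a type and less RNA per cell cannot be told apart.

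In the 14.5 dpc wt pancreas the cytosolic enzymes were the more abundant class on the RPKM scale, reads divided by exon length and library size. Kars, the lysyl enzyme (chromosome 8, 111993440 to 112011323 in mm10), was the highest cytosolic member, at 93.1, 99.1 and 95.7. Cars, the cysteinyl enzyme, was the lowest, at 11.7, 10.7 and 11.1. Gars and Nars, for glycine and asparagine, followed Kars at means of 81.8 and 76.8, and the neighbours Sars, Hars and Vars stood at 57.9, 56.6 and 56.6, closer to each other than to Nars. Exon lengths in the table are the sum over all annotated transcripts, so that a gene with long rare exons would be given a lower level on this scale. Exon use was not measured.

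The mitochondrial members other than Lars2 ranged in wt from a mean of 2.81 for Wars2, the mitochondrial tryptophanyl enzyme, to 14.9 for Sars2, the seryl enzyme, RPKM. Wars2 libraries stood at 2.80, 2.57 and 3.05. Lars2, the mitochondrial leucyl enzyme (chromosome 9, 123366940 to 123462664), was at 292, 337 and 291. On this scale Lars2 was thus above every cytosolic member in wt. Counts per gene do not show from which exons of Lars2 the reads came. In each group of explants its libraries spread more widely, relative to their mean, than those of the other 35 members. Its normalised read counts in control explants were 25793, 17128 and 18427, and in JTE + CTGF explants 23382, 20483 and 29808. Sums over the mitochondrial class are therefore given without Lars2.

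The comparison of JTE with control explants asked what the S1pr2 antagonist changed within 2 days of culture. Transcripts of 13 of the 20 cytosolic enzymes were higher with JTE and 2 were lower (adjusted p below 0.05). Of all 16245 genes tested 25.9% were higher and 26.2% were lower by the same rule. The median log2 fold change over the cytosolic members was 0.43, against 0.00 over all genes tested. Of the 16 mitochondrial members 6 were higher and 1 was lower, with a median of 0.15. Under the stricter criterion of the study (fold change below 0.6 or above 1.6 in protein-coding genes whose mean exceeds 100 normalised reads in one of the groups, at an adjusted p no higher than 0.1), 8 members were regulated, all of them cytosolic and higher, and 8.25% of all genes tested met it in either direction. Without JTE 3, 13 cytosolic members were higher and 2 lower (median 0.46), and 6 mitochondrial members were higher and 0 lower. That fit called 8062 of 16481 genes in either direction. The nearest mitochondrial member, Nars2, had a fold change of 1.58. The 8 were Eprs, Sars, Yars, Aars, Cars, Nars, Iars and Mars1.

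**Figure D1:**
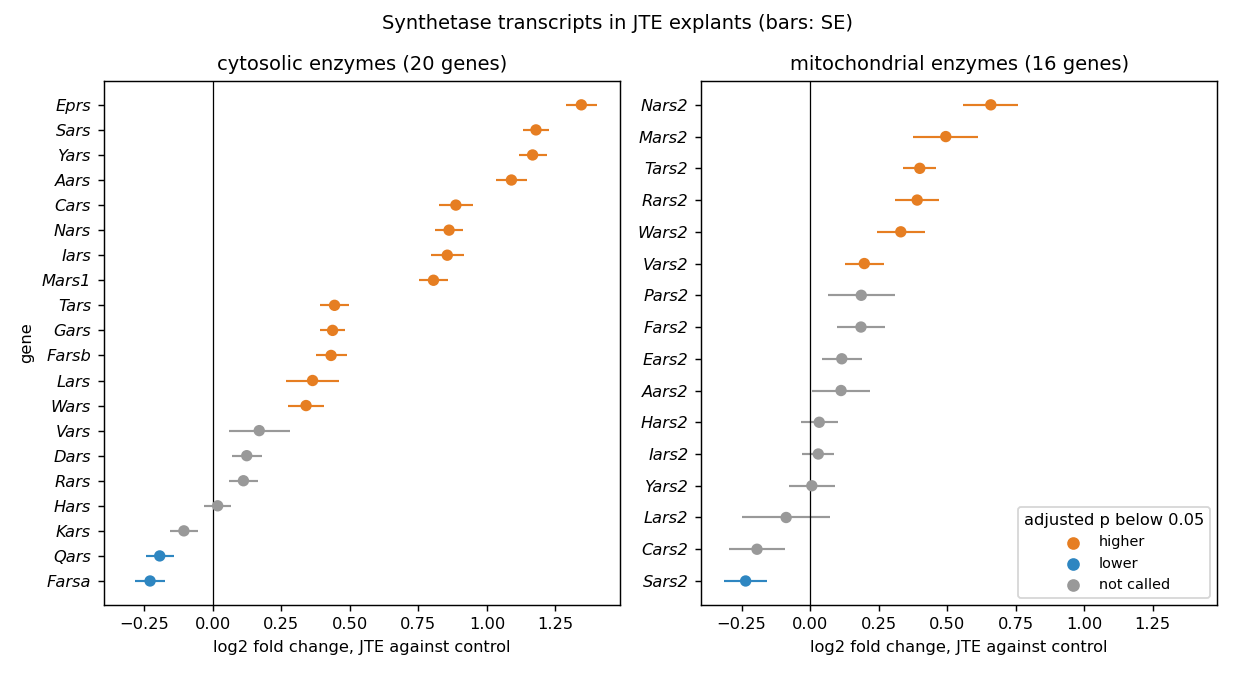
Log2 fold change of JTE against control explants for each cytosolic (left) and mitochondrial (right) synthetase gene, with the standard error as a bar and the edgeR call at an adjusted p below 0.05 as colour. Of the cytosolic genes 8 lie between 0.81 and 1.34, apart from the next at 0.44, while the highest mitochondrial gene, Nars2, lies at 0.66.

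Eprs, which encodes the fused glutamyl and prolyl enzyme of the multisynthetase complex (chromosome 1, 185363095 to 185428355, 32 exon intervals), rose most. Its normalised read counts were 3384, 3461 and 3239 in the control libraries and 8321, 8455 and 8839 in the JTE libraries. Every JTE library was above every control library. Such a separation was common, since 4620 of all 16245 genes tested lay wholly above control and 4594 wholly below. The log2 fold change was 1.34 ± 0.06 (SE, n = 3; edgeR adjusted p = 1.42e-11), with group means of 3361 ± 113 and 8539 ± 269 (SD). In wt pancreata Eprs stood at 2882, 2924 and 3033, so that control explants lay slightly above fresh tissue and JTE explants far above both.

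Sars, Yars and Aars, the seryl, tyrosyl and alanyl enzymes that act outside the complex, all rose by more than 1 on the log2 scale. Sars (chromosome 3, 108424865 to 108445209) went from 3510, 3286 and 3364 to 7533, 7618 and 7859 normalised reads, by 1.18 ± 0.05 (SE, edgeR adjusted p = 1.34e-11). Yars (chromosome 4, 129189760 to 129219607) went from 1286, 1274 and 1265 to 2704, 2896 and 2987, by 1.17 ± 0.05 (SE, edgeR adjusted p = 2.23e-11). Aars (chromosome 8, 111033144 to 111057664) went from 2875, 2843 and 2946 to 5786, 5966 and 6687, by 1.09 ± 0.06 (SE, edgeR adjusted p = 2.38e-10). In none of these genes did a JTE library fall within the control range, and the library JTE 3 was the highest of its group for each. Aars shares 13.8% of its 50-base words with other loci, among them its neighbour Exosc6, so that its absolute level is less certain.

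Cars, Nars, Iars and Mars1 rose by between 0.81 and 0.89. Cars (chromosome 7, 143557230 to 143600090) went from 825, 886 and 882 to 1606, 1583 and 1607 normalised reads, by 0.89 ± 0.06 (SE, edgeR adjusted p = 6.1e-09). Nars, the asparaginyl enzyme, went from 3099, 2992 and 2856 to 5417, 5308 and 5541, by 0.86 ± 0.05 (SE, edgeR adjusted p = 7.36e-10). Control and JTE libraries were again fully apart in both genes. Iars, the isoleucyl enzyme of the complex (chromosome 13, 49682100 to 49734267), went from 2061, 2136 and 2132 to 3603, 3857 and 3993, by 0.86 ± 0.06 (SE, edgeR adjusted p = 5.98e-09). Mars1, the methionyl enzyme of the complex (chromosome 10, 127296221 to 127311786), went from 1629, 1674 and 1519 to 2678, 2861 and 2887, by 0.81 ± 0.05 (SE, edgeR adjusted p = 4.54e-09). Mars1 shares 68 exon bases, 2.0% of its length, with Ddit3 on the opposite strand, which itself rose by 3.47, and the strand setting of the counting was not stated.

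**Figure D2:**
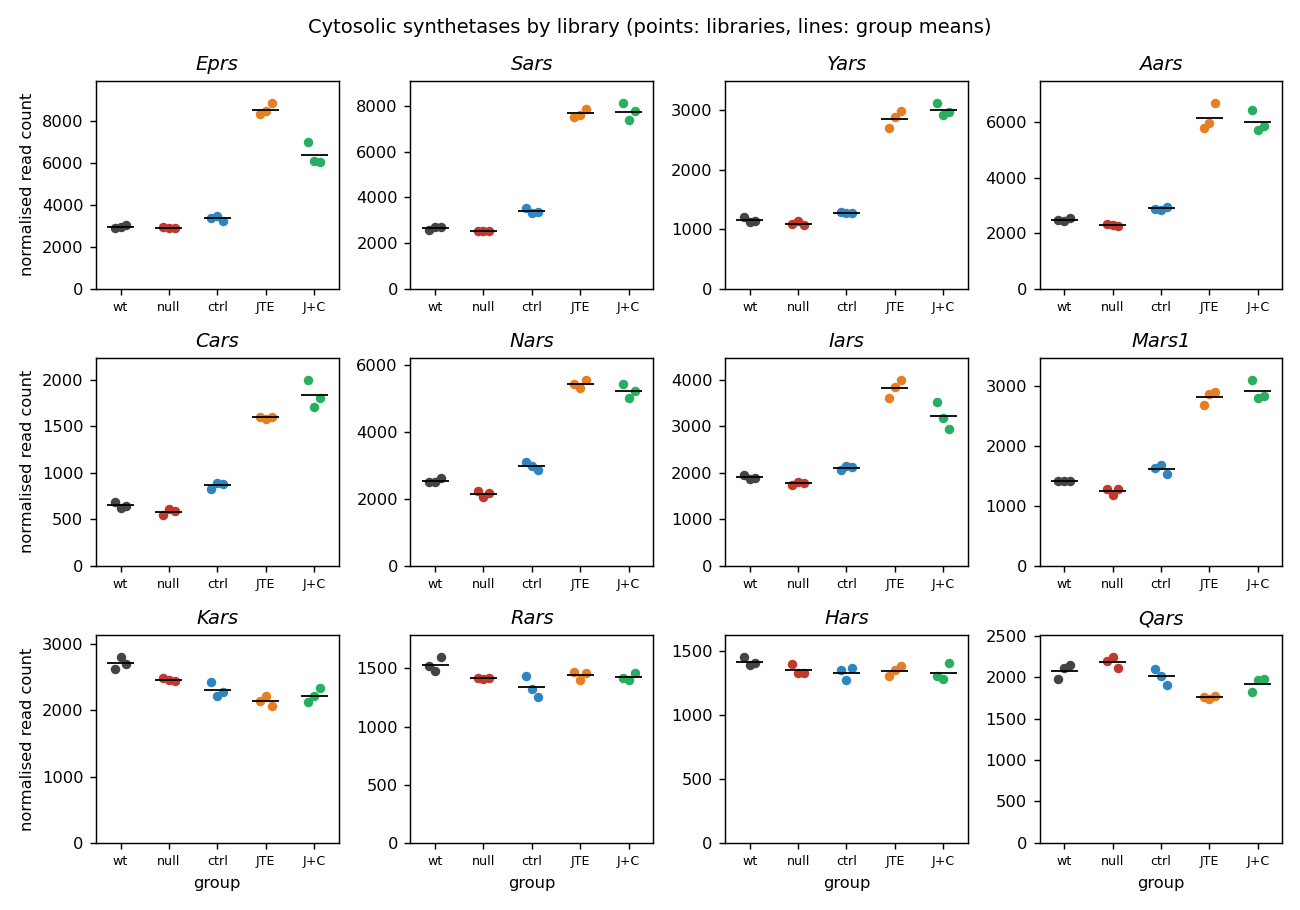
Normalised read counts of 12 cytosolic synthetase genes in each library (points; vertical axis from 0) with group means (lines), for wt and S1pr2 null (null) pancreata at 14.5 dpc and for control (ctrl), JTE and JTE + CTGF (J+C) explants. The upper 8 genes show JTE libraries above all control libraries, whereas Kars, Rars and Hars stay within a narrow range across explants and Qars was lower with JTE. Of all 16245 genes tested 4620 also had every JTE library above every control library.

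The other 5 cytosolic members that rose did so by less. Tars and Gars each rose by 0.44, Farsb, the beta chain of the phenylalanyl enzyme, by 0.43, Lars by 0.36 and Wars by 0.34. Lars, the leucyl enzyme, had overlapping libraries, with 2278, 2337 and 1820 in control and 2800, 3159 and 2330 with JTE, and the third library of each group was the lowest. Farsa, the alpha chain of the same enzyme, was lower (−0.23 ± 0.05 SE, edgeR adjusted p = 0.00169), and the glutaminyl enzyme Qars was lower (−0.19 ± 0.05 SE, edgeR adjusted p = 0.00462). The chains of one enzyme thus went in opposite directions. Farsb shares 11% of its exon bases with Sgpp2 on the opposite strand. Its mean was 1015 normalised reads in wt, 722 in control and 975 in JTE explants. The remaining 5 cytosolic members, Vars, Dars, Rars, Hars and Kars, were not called, with log2 fold changes of 0.17, 0.12, 0.11, 0.02 and −0.11.

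Members of the complex and the other cytosolic enzymes both held genes that rose. Of the 8 enzymes of the multisynthetase complex 4 were higher (Eprs, Iars, Mars1 and Lars) and 1 was lower (Qars), with a median log2 fold change of 0.24. Of the 12 outside it 9 were higher and 1 was lower, with a median of 0.44. These shares, 50% and 75% higher and 12.5% and 8.33% lower, stand beside 25.9% and 26.2% of all genes tested. By catalytic fold, 6 of 9 class I and 6 of 10 class II cytosolic members were higher, and 1 of each was lower. Eprs, whose domains belong to both classes, is counted in neither.

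**Figure D3:**
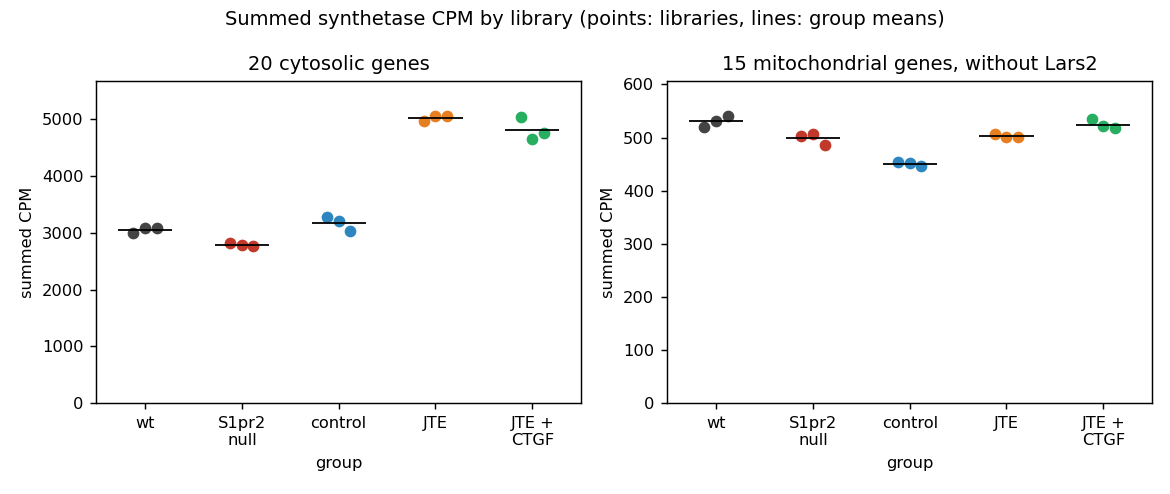
Summed CPM, counts scaled to library size, of the 20 cytosolic genes (left) and of the 15 mitochondrial genes other than Lars2 (right) in each library (points), with group means (lines) and vertical axes from 0. The JTE and JTE + CTGF libraries stand apart from the other groups in the cytosolic sum, at 4646 to 5058 against 2769 to 3283, while the mitochondrial sum stays between 447 and 541.

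Summed over the class, cytosolic synthetases took 3030 to 3283 CPM (counts scaled to library size) in control explants and 4959 to 5058 in JTE explants. The mitochondrial members other than Lars2 took 447 to 454 and 501 to 507. In wt pancreata the cytosolic sum was 2992 to 3083 and the mitochondrial sum 520 to 541. The mean log2 CPM of the cytosolic members minus that of all mitochondrial members, Lars2 included, was 2.15 ± 0.05 (SD, n = 3) in control explants. In JTE explants it was 2.50 ± 0.02, a difference of 0.34. Without Lars2 the values were 2.53 ± 0.05 in control and 2.85 ± 0.02 in JTE explants. These differences are descriptions over members, which are not replicates, and were not tested.

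Among the mitochondrial members the asparaginyl enzyme Nars2 and the methionyl enzyme Mars2 rose most with JTE. Nars2 (chromosome 7, 96951505 to 97064761) went from 168, 152 and 173 to 269, 254 and 255 normalised reads, by 0.66 ± 0.10 (SE, edgeR adjusted p = 3.51e-05). Mars2, a gene of 1 exon (chromosome 1, 55237177 to 55240058), went from 106, 105 and 97 to 139, 145 and 150, by 0.49 ± 0.12 (SE, edgeR adjusted p = 0.00217). Both were called and had separate libraries, at depths of about 100 to 300 reads where counting error is a larger share of the spread. Tars2 rose by 0.40, Rars2 by 0.39, Wars2 by 0.33 and Vars2 by 0.20. Mean normalised reads in wt, control and JTE were 710, 576 and 760 for Tars2 and 471, 330 and 433 for Rars2. They were 209, 241 and 302 for Wars2 and 832, 610 and 700 for Vars2. For Nars2 they were 189, 164 and 259, and for Mars2 128, 103 and 144. The call of Vars2 was lost without control 1, control 2, control 3, JTE 1 or JTE 2, at an adjusted p of at most 0.0792. Sars2 was lower (−0.24 ± 0.08 SE, edgeR adjusted p = 0.0166), and its call was lost without control 3, JTE 2 or JTE 3, with an adjusted p of at most 0.0994 over all settings. The 9 mitochondrial members not called had log2 fold changes between −0.19 (Cars2) and 0.19 (Pars2).

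Set side by side with the mitochondrial enzyme for the same amino acid, 6 of the 8 strongly raised cytosolic members (Sars, Eprs, Yars, Aars, Cars and Iars) parted from their partners. Sars rose by 1.18 while Sars2 was lower, with 252, 240 and 280 normalised reads in control and 232, 211 and 213 in JTE libraries. The log2 ratio of Sars to Sars2 counts had a mean of 3.72 in control and 5.13 in JTE explants. Eprs has a mitochondrial partner for each of its amino acids. Ears2, the glutamyl enzyme, held 311, 281 and 273 normalised reads in control and 333, 305 and 300 in JTE libraries. Pars2, the prolyl enzyme, held 114, 112 and 122 in control and 121, 145 and 129 in JTE libraries. Neither partner was called (edgeR adjusted p = 0.201 and 0.215), and the control and JTE libraries of both overlapped.

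Yars2, Aars2, Cars2 and Iars2 were likewise not called with JTE. Yars2 held 333, 335 and 319 normalised reads in control and 370, 329 and 294 in JTE libraries. Aars2 held 304, 342 and 378 in control and 314, 341 and 448 with JTE. The libraries of both genes overlapped between the groups. Cars2 held 287, 328 and 271 in control and 288, 275 and 214 in JTE libraries, and Iars2 held 1155, 1147 and 1063 against 1095, 1141 and 1199. Cars2 shares 20.5% of its exon bases with Naxd and Iars2 shares 22.7% with Rab3gap2, both on the opposite strand. Mean log2 ratios of the cytosolic to the mitochondrial count rose by 1.16 for tyrosine, 0.99 for alanine, 1.08 for cysteine and 0.83 for isoleucine.

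The other pairs showed smaller shifts in either direction. The Nars to Nars2 ratio rose by 0.20 and the Mars1 to Mars2 ratio by 0.31, and both enzymes of each pair rose. The pairs for threonine and tryptophan changed by 0.04 and 0.01, with Tars and Tars2 as well as Wars and Wars2 called higher. For arginine the ratio fell by 0.28, with Rars2 called higher (0.39) and Rars not called (0.11 ± 0.05 SE, edgeR adjusted p = 0.0789). Ratios for histidine and valine changed by −0.02 and −0.01. The Farsa to Fars2 ratio fell by 0.42, with every JTE library below every control library, whereas the Farsb to Fars2 ratio rose by 0.24 with overlapping libraries. The Lars to Lars2 ratio rose by 0.45, also with overlapping libraries.

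**Figure D4:**
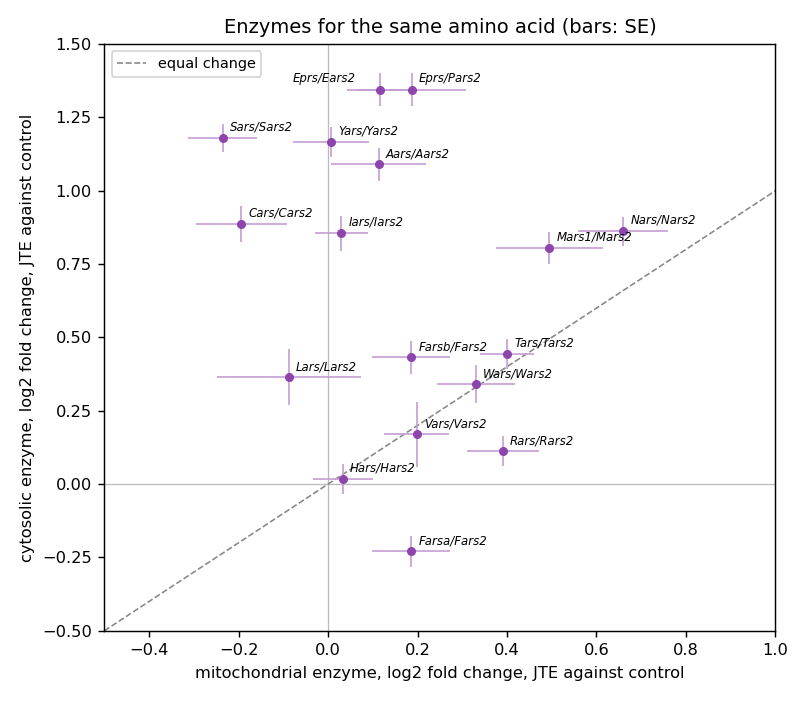
Log2 fold change of JTE against control explants for the mitochondrial (horizontal axis) and cytosolic (vertical axis) enzymes for the same amino acid, with standard errors as bars; the dashed line marks equal change. Pairs with Eprs, Sars, Yars, Aars, Cars and Iars lie far above the line, with cytosolic changes of 0.86 to 1.34 and mitochondrial changes of −0.24 to 0.19, while the pairs for threonine, tryptophan, valine and histidine lie near it.

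Members that move together raised the question of shared letters in their promoters. The C/EBP-ATF response element, at which ATF4 binds with C/EBP proteins, has the core TGATGNAA. This core was searched on both strands of the windows from 250 bases before to 50 bases after the transcript start (RefSeq, GRCm38.p6), which were given for 27 of the 36 members. It was found in 5 of 13 cytosolic windows and in 0 of 14 mitochondrial members, against 4.51% of 27025 genes with a window. All 5 genes with a match, Aars, Gars, Iars, Tars and Yars, were among the 9 cytosolic members with a window that rose with JTE. Only 4 cytosolic members with a window did not rise, and Cars, Nars, Lars and Wars, which rose, had no window. A link of matches to the rise was not tested. A match is a description of the letters and not evidence of binding. The matches of Iars, Tars and Yars follow with the core in capitals on the strand of the gene, where TTGCATCA is its reverse complement, because they are the sequence the genes share.

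Iars, chr13:49682126-49682155, plus strand, core 8 bases after the start: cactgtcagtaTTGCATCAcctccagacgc
Tars, chr15:11399655-11399684, minus strand, core 15 bases before the start: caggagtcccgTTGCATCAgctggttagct
Yars, chr4:129189895-129189924, plus strand, core 4 bases after the start: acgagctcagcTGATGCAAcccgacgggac

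The Gars match, the reverse complement of the core at chr6:55037971-55037978 on the strand of the gene (plus), began 30 bases before the start. No match was found in the windows of Eprs, Sars, Mars1 and Farsb, which rose, nor in those of Dars, Farsa, Kars and Qars, which did not. For Eprs, the member with the largest rise, and for Sars, the next, the 150 bases before the start are given for comparison.

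Eprs, chr1:185362894-185363043, plus strand: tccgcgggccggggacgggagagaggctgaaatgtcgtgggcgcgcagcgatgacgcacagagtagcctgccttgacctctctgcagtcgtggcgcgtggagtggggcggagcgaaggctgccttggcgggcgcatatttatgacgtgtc
Sars, chr3:108445260-108445409, minus strand: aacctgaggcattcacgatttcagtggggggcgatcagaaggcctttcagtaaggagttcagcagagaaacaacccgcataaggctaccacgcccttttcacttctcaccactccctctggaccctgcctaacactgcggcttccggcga

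Genes that act beside the synthetases changed to different extents with JTE. Of 9 partners and relatives 5 were higher and 1 was lower, namely the scaffold gene Aimp2 (−0.40 ± 0.08 SE, edgeR adjusted p = 0.000395), while the scaffold genes Eef1e1 and Aimp1 were higher by 0.32 and 0.22. Of 18 genes of tRNA maturation and export 8 were higher and 4 lower, led by the tRNA export receptor Xpot at 1.14 ± 0.06 (SE, edgeR adjusted p = 4.8e-10). Of 6 genes of selenocysteine tRNA 5 were higher and 1 was lower, with Sepsecs, which makes selenocysteinyl-tRNA, at 0.62 and the selenophosphate synthetase gene Sephs1 at −0.43. Of 6 genes of mitochondrial charging 2 were higher (Gatc at 0.41 and Mtfmt at 0.38). The median log2 fold changes of these lists were 0.20, 0.19, 0.38 and 0.06, against 0.00 over all genes tested. Of all genes tested 25.9% were higher and 26.2% were lower. The 22.2% lower in tRNA maturation and the 33.3% higher in mitochondrial charging were near those shares.

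The list of the ATF4 programme had 20 of 21 genes higher with JTE, at a median log2 fold change of 1.37. Trib3 stood at 4.89, Ddit3 at 3.47, Atf5 at 2.94, and Atf4 itself at 1.2 ± 0.07 (SE, edgeR adjusted p = 7.24e-10). Of 22 amino acid transporter genes 14 were higher and 4 lower, with Slc7a3, a cationic amino acid carrier, at 3.28, and the subunits Slc3a2 and Slc7a5 of one large neutral amino acid exchanger at 1.84 and 1.78. Of 16 genes of the eIF2 kinases and the eIF2 branch 8 were higher and 4 lower, with the phosphatase subunit Ppp1r15a at 1.74. Shares higher were 95.2%, 63.6% and 50% in these 3 lists, beside 25.9% of all genes tested. Shares lower were 0%, 18.2% and 25%, beside 26.2%.

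Cell type markers moved in the same comparison. Of 5 epithelial markers 3 (Sox9, Pdx1 and Epcam) were lower with JTE, by 0.57 to 0.70 on the log2 scale, and their sum over all 5 was 19866 to 22444 in control and 16180 to 19775 in JTE libraries. All 5 endocrine, 3 endothelial and 3 leukocyte markers were lower with JTE, and the summed endocrine count went from 51848 to 58847 in control to 7588 to 11096 in JTE libraries. The 6 acinar markers had 1 gene higher and 1 lower, with summed counts of 573728 to 765556 and 571042 to 1031420. The part of cell composition in the synthetase differences was not tested.

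Adding CTGF to JTE was compared with JTE alone. Here 3 of 20 cytosolic members were higher and 3 were lower, and 1 of 16 mitochondrial members was higher and 1 lower. Of all genes tested 13.6% were higher and 16.8% were lower, and 1.74% met the criterion of the study, which no member met. The shares of cytosolic members, 15% in each direction, were near those of all genes tested. Without JTE 3, 2 mitochondrial members were higher and 0 lower, in a fit that called 4848 of 16481 genes in either direction. The 3 that fell, Eprs, Lars and Iars, are among the 8 enzymes of the multisynthetase complex. The other 5 (Dars, Kars, Mars1, Qars and Rars) were not called, with log2 fold changes between −0.08 and 0.13. The median over the complex was −0.05. Eprs fell from 8321, 8455 and 8839 to 6970, 6071 and 6035 normalised reads, by 0.42 ± 0.05 on the log2 scale (SE, edgeR adjusted p = 2.49e-05). Iars fell from 3603, 3857 and 3993 to 3533, 3188 and 2934, by 0.25 ± 0.06 (SE, edgeR adjusted p = 0.00435). Libraries with CTGF lay below all JTE libraries for both, but above all control libraries. Of all 16245 genes tested 3347 had every JTE + CTGF library below every JTE library. The Iars call was lost with only the libraries of the comparison in the fit (adjusted p = 0.0513).

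Lars held 2154, 2030 and 2090 normalised reads with CTGF, below each JTE library (2800, 3159 and 2330) and within the control range (−0.40 ± 0.10 SE against JTE, edgeR adjusted p = 0.00435). Its mitochondrial counterpart Lars2 held 15719, 18554 and 23473 with JTE and 23382, 20483 and 29808 with CTGF, which overlapped. Farsb, Cars and Gars were higher by 0.21, 0.20 and 0.13. The count of higher cytosolic members was 1 without JTE 2, when Cars and Gars were no longer called, and Cars was also lost without JTE + CTGF 1. Without JTE 2, 4143 of 16488 genes were called in either direction, against 4941 of 16245 in the main fit. Gars (3807, 3903 and 3892 with JTE, 4394, 4048 and 4237 with CTGF) was lost in 9 alternative fits, at an adjusted p of up to 0.136.

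Aars2, the mitochondrial alanyl enzyme (chromosome 17, 45506841 to 45520842), showed the largest change with CTGF of any member. It held 314, 341 and 448 normalised reads with JTE and 551, 554 and 545 with CTGF, higher by 0.58 ± 0.10 on the log2 scale (SE, edgeR adjusted p = 0.000498). CTGF libraries lay above those of each other group, since wt pancreata held 397, 386 and 406. Its cytosolic counterpart Aars was not called (−0.03 ± 0.06 SE, edgeR adjusted p = 0.721). The mitochondrial isoleucyl enzyme Iars2 was lower by 0.18 (−0.18 ± 0.06 SE, edgeR adjusted p = 0.0329), a call that was lost without JTE 2, JTE 3, JTE + CTGF 2 or JTE + CTGF 3. Of 6 erythroid markers 5 were also higher with CTGF, and their part in these values was not tested.

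Against control explants, which both comparisons share, JTE + CTGF gave values near those of JTE alone for most members. Of the cytosolic members 12 were higher and 1 was lower, beside 28.1% and 33% of all genes tested, and the median was 0.53. The criterion of the study was met by 7 cytosolic and 2 mitochondrial members (Nars2 and Aars2), beside 11.8% of all genes tested. Yars differed from control by 1.24 ± 0.05 (SE), Sars by 1.19 ± 0.05, Cars by 1.09 ± 0.06 and Aars by 1.06 ± 0.06. Their JTE + CTGF libraries held 3120, 2922 and 2978 (Yars), 8114, 7368 and 7762 (Sars), 1998, 1706 and 1805 (Cars) and 6447, 5739 and 5853 (Aars) normalised reads. All of these lay above every control library, a separation that 4935 of all 16245 genes tested also showed. Lars was no longer different from control (−0.04 ± 0.10 SE, edgeR adjusted p = 0.757). Of the mitochondrial members 9 were higher and 2 were lower, among them Nars2 at 0.77, Aars2 at 0.69 and Tars2 at 0.52.

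The comparison of the libraries labelled S1pr2 null with wt asked how the receptor bears on the pancreas in the embryo. Here 0 cytosolic members were higher and 5 were lower, and 0 mitochondrial members were higher and 2 were lower, at an adjusted p below 0.05. Of all genes tested 12.6% were higher and 13.3% were lower, so that 5 of 20 (25%) was above and 2 of 16 (12.5%) near that share. At an unadjusted p below 0.05 edgeR gave 0 members higher and 9 cytosolic and 6 mitochondrial members lower. The share of all genes at that threshold is not given, so these counts cannot be judged against it. DESeq2 called 0 members higher, and over all genes it called 3803 of 16463 in either direction. The changes were small, with medians of −0.11 and −0.05 against −0.01 over all genes tested. No member met the criterion of the study, which 3% of all genes tested met.

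Nars held 2507, 2490 and 2615 normalised reads in wt and 2217, 2038 and 2164 in the libraries labelled S1pr2 null (−0.25 ± 0.05 SE on the log2 scale, edgeR adjusted p = 0.00176). Gars (chromosome 6, 55038001 to 55079504) held 2501, 2412 and 2456 in wt and 2153, 2107 and 1984 in those libraries (−0.24 ± 0.05 SE, edgeR adjusted p = 0.0011). Dars, the aspartyl enzyme of the complex, held 1610, 1754 and 1658 against 1403, 1431 and 1469 (−0.22 ± 0.05 SE, edgeR adjusted p = 0.0057). All 3 genes had every labelled library below every wt library, as did 3866 of all 16245 genes tested. Farsb (−0.19) and Mars1 (−0.18) completed the cytosolic calls, and with wt 2 or S1pr2 null 2 left out 3 cytosolic members were called instead of 5. Calls over all genes fell as well, from 4199 to 2809 and 3106.

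Sars2 held 354, 364 and 354 normalised reads in wt and 303, 307 and 297 in the libraries labelled S1pr2 null (−0.24 ± 0.07 SE, edgeR adjusted p = 0.0191), with no overlap. Iars2 was the other mitochondrial call (−0.20 ± 0.06 SE, edgeR adjusted p = 0.0149). Both calls depended on single libraries, since both were lost without wt 2 and also without S1pr2 null 3. The 1 mitochondrial member then called lower was Rars2 without wt 2 and Mars2 without S1pr2 null 3. Without JTE 3 there were 4 mitochondrial members called lower, and without wt 1 there were 5. These fits called 4729 of 16481 and 3893 of 16473 genes in either direction. Eprs, which rose most with JTE, held 2913, 2900 and 2882 in the labelled libraries, overlapping those of wt. In the same libraries 10 of 21 genes of the ATF4 programme were lower, beside 13.3% of all genes tested. Markers moved here as well, with 5 of 6 acinar and 4 of 5 endocrine genes lower, with the sums given above. Their part in the synthetase values was not tested.

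An interaction contrast tested the response to JTE against the difference between libraries labelled S1pr2 null and wt. Its arms have no library in common. It was higher for 15 of 20 cytosolic and 6 of 16 mitochondrial members, and lower for 1 cytosolic member, Qars, while 21.5% of all genes tested were higher and 21.5% lower. The median difference was 0.61 for cytosolic and 0.22 for mitochondrial members, against 0.00 over all genes tested. Genotype and antagonist were compared in tissues that also differ in age, culture and dissection, which cannot be told apart.

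Control explants after 2 days of culture were also set against freshly taken wt pancreata. The classes went different ways, with 11 cytosolic members higher and 5 lower, and 1 mitochondrial member higher and 8 lower, beside 28.5% and 29.3% of all genes tested. Medians were 0.15 and −0.26, or −0.30 without Lars2, against −0.02 over all genes tested. No member met the criterion of the study, which 12.1% of all genes tested met. Pars2 held 176, 177 and 159 normalised reads in wt and 114, 112 and 122 in control explants (−0.56 ± 0.12 SE on the log2 scale, edgeR adjusted p = 0.00067). Rars2, the mitochondrial arginyl enzyme (chromosome 4, 34614957 to 34660167), held 464, 439 and 509 against 310, 359 and 322 (−0.51 ± 0.08 SE, edgeR adjusted p = 3.17e-05). Both had control explants below every wt library, as did 5368 of all 16245 genes tested. Their cytosolic counterparts parted, since Rars was lower (1518, 1476 and 1595 against 1431, 1325 and 1257) and Eprs higher by 0.19.

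Farsb held 960, 1078 and 1005 normalised reads in wt and 696, 762 and 708 in control explants (−0.49 ± 0.06 SE, edgeR adjusted p = 1.23e-06). Sars2 fell from 354, 364 and 354 to 252, 240 and 280, by 0.47 ± 0.07 (SE, edgeR adjusted p = 3.2e-05). For both, the groups did not overlap. Fars2, the mitochondrial phenylalanyl enzyme, held 277, 296 and 268 in wt and 375, 287 and 298 in control explants, which overlapped. The largest cytosolic rises were those of Cars (0.41), Lars (0.40) and Sars (0.35), all of which rose further with JTE. The Iars call (0.15 ± 0.06 SE, edgeR adjusted p = 0.0425) was lost in 13 of the alternative fits, and Yars was lost without wt 2, wt 3 or control 1. Lars2 (0.45 ± 0.16 SE, edgeR adjusted p = 0.0235) was the single mitochondrial member called higher, and it was lost without wt 1, wt 3 or control 1. Mars2 was lost without wt 2, wt 3, control 2 or control 3, at an adjusted p of at most 0.127.

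Acinar markers rose in all 6 of 6 genes in this comparison and erythroid markers fell in 6 of 6. Of the ATF4 programme 16 of 21 genes were higher and 1 was lower, beside 28.5% and 29.3% of all genes tested, and Atf4 was at 0.61. The part of these in the synthetase values was not tested, and culture, age and the dissected tissue cannot be told apart.

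**Figure D5:**
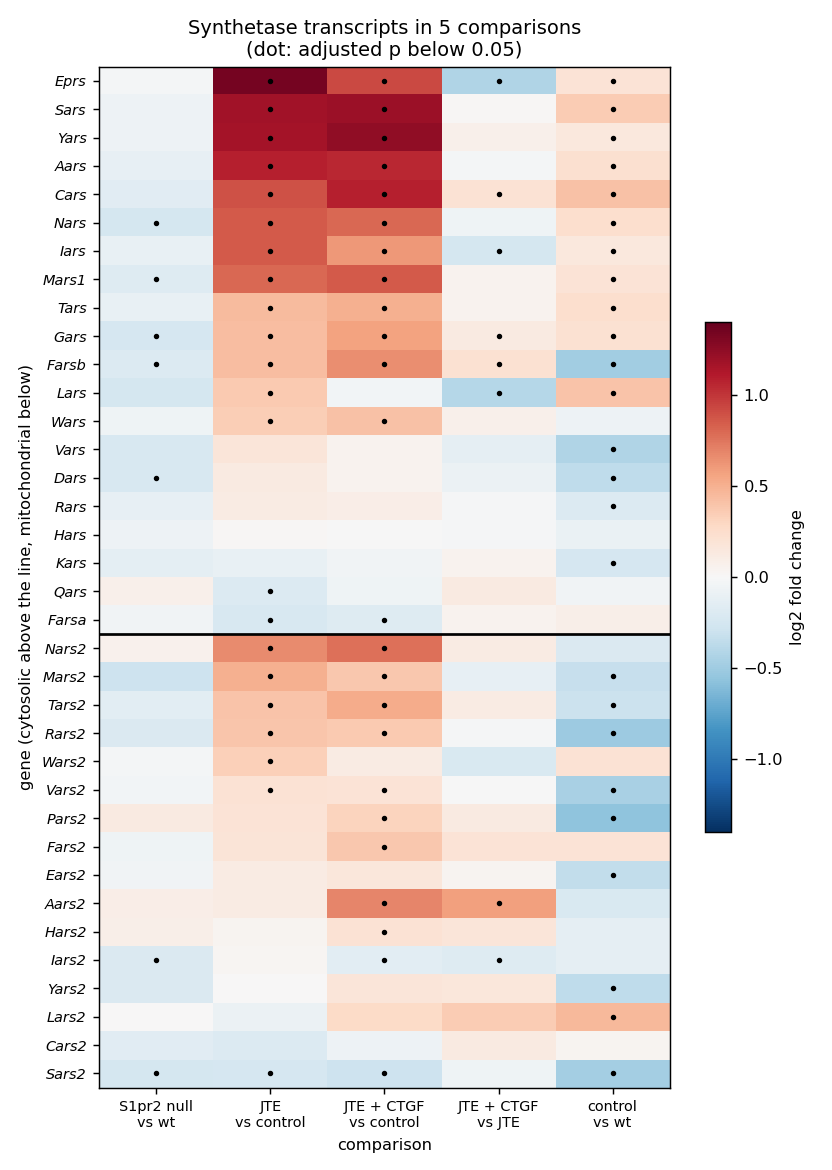
Log2 fold changes (colour) of the 20 cytosolic genes (above the line) and 16 mitochondrial genes (below) in 5 comparisons, ordered by the change with JTE, with a dot where the edgeR adjusted p was below 0.05. The upper 8 cytosolic genes reach 1.34 in the JTE column and stand between 0.61 and 1.24 with JTE + CTGF against control, where Nars2 is at 0.77, and the S1pr2 null column holds no value beyond −0.29.

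The order of the cytosolic members on the RPKM scale differed between groups. Kars was the highest of 20 in wt (96.0) and in the libraries labelled S1pr2 null (87.2), at rank 3 in control explants (81.6) and at rank 5 in JTE explants (75.9). Sars, at 57.9 in wt, was the highest in JTE (167) and JTE + CTGF explants (169). Nars at 164 was next in JTE explants, followed by Eprs at 140 and Gars at 129. Sars and Nars in JTE explants were closer to each other than to Eprs.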

How the data were processed

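RNA was sequenced from 15 libraries of mouse embryonic pancreas in 5 groups of 3, with groups and replicate numbers taken from the sample titles. Libraries were strand-specific and poly(A)-selected. The authors aligned single-end reads to mm10 with GSNAP and Ensembl splice sites, and deposited raw read counts per Ensembl gene of uniquely aligned reads, counted with featureCounts 1.4.6. The strand setting of the counting is not given in the sources used here, so genes overlapping on opposite strands can share reads. Reads that align to several loci were not counted. The summed exon length in the deposited table was used to scale levels between genes (RPKM). Symbols came from GENCODE M21 and were found for 24750 of 25292 identifiers (97.9%).

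Differences were tested by edgeR 4.0.16 in R 4.3.3 (glmQLFit and glmQLFTest, TMM normalisation), with filterByExpr by group, 1 coefficient per group and all 15 libraries in 1 fit, two-sided, with Benjamini-Hochberg adjustment over 16245 genes. A normalised read count is the count scaled to the mean effective library size. SE is of the log2 fold change. Mean log2 CPM used a prior count of 2. The spread between libraries (biological coefficient of variation 7.3%) exceeded counting error for well-expressed members. Libraries of a group were independent pools in the study's methods and none was a copy of another by a chi-square test of their counts. The alternatives were DESeq2 1.42.0, RLE and upper quartile factors, no filter, fits of the compared libraries alone, a replicate block, and each library left out. The fits were tried on simulated counts first. Python 3.11.15 with pandas 2.3.3 and matplotlib 3.10.9 served for promoters and plots.

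Members, gene lists, tests and the motif were chosen with earlier results of these data known. Values by library are given for the 10 members with the largest change among those called in JTE against control, the 4 such members in each of the other comparisons, the cytosolic or mitochondrial partner of a named member, and the highest and lowest members of each class in wt. Up to 6 genes of the other lists were named in order of adjusted p, and Atf4 and the cell type markers were named after their values were seen. The Aars promoter stretches are not reported here.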

Additional observations from a re-analysis of the deposited data

Results flagged for a closer look

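The response to JTE differed from that of the libraries labelled S1pr2 null by a test of the difference (edgeR interaction contrast, adjusted p below 0.05) for 22 members. The log2 differences above 0.9 were Eprs 1.37, Sars 1.25, Yars 1.24, Aars 1.21, Nars 1.11, Cars 1.05, Mars1 0.98 and Iars 0.96. Those between 0.5 and 0.8 were Mars2 0.78, Gars 0.68, Farsb 0.62, Lars 0.61, Nars2 0.6, Rars2 0.6, Tars2 0.55 and Tars 0.55. The smallest positive ones were Wars 0.4, Wars2 0.36, Dars 0.35, Iars2 0.23 and Rars 0.22. Qars was the single member with a negative difference, at -0.27. Lars libraries of control and JTE explants overlapped, and Dars, Rars and Iars2 were not called in JTE against control. Iars2, Wars2 and Rars lost their call of a difference in 7, 6 and 2 alternative fits. Age, culture and dissected tissue differ between the arms and cannot be told apart from the manipulation of S1pr2.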

How the results depend on the processing

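No value of a named member changed sign with a call in any alternative. The counts of cytosolic members higher with JTE and with JTE + CTGF against control, and of mitochondrial members lower in control explants against wt, stayed within 1.5 times in every fit except under the criterion of the study. Under that criterion, counts higher and lower were 8 and 0 (cytosolic) and 0 and 0 (mitochondrial) in JTE against control, 7 and 0, and 2 and 0, in JTE + CTGF against control, and 0 in JTE + CTGF against JTE, S1pr2 null against wt and control against wt. With DESeq2, 1 mitochondrial member was lower in S1pr2 null against wt, 0 were lower in JTE + CTGF against JTE, 0 were higher in control against wt, and 2 cytosolic members were lower in the interaction. RLE factors gave 2 mitochondrial members higher in JTE + CTGF against JTE (median 0.13), 2 higher in control against wt, and 2 cytosolic members lower in the interaction. Upper quartile factors gave 8 cytosolic members lower in S1pr2 null against wt, a mitochondrial median of 0.115 in JTE against control, 2 mitochondrial members higher in JTE + CTGF against JTE (median 0.136) and 2 cytosolic members lower in the interaction. With no filter, 1 mitochondrial member was lower in S1pr2 null against wt, 0 in JTE against control, 3 higher and 0 lower in JTE + CTGF against JTE (median 0.143), and 0 cytosolic and 1 mitochondrial lower in JTE + CTGF against control (mitochondrial median 0.27). With only the compared libraries, 9 cytosolic members were lower in S1pr2 null against wt, 0 mitochondrial members were lower in JTE against control and in JTE + CTGF against JTE, 1 was lower in JTE + CTGF against control, and 2 cytosolic members were lower in the interaction. Calls over all genes in S1pr2 null against wt moved as well. They numbered 5388 of 15527 with only the compared libraries, 4228 of 16245 with upper quartile factors and 4199 of 16245 in the main fit. For JTE + CTGF against JTE, DESeq2 called 4493 of 16463, RLE factors 5050 of 16245 and upper quartile factors 5053 of 16245. No filter gave 5019 of 25292 and only the compared libraries 3584 of 14925, against 4941 of 16245 in the main fit. Only the compared libraries gave 7331 of 15342 in JTE against control, against 8474 of 16245 in the main fit. In the interaction they gave 7047 of 16122, against 6977 of 16245. Without Lars2 the mitochondrial median was 0.186 in JTE against control, 0.203 in JTE + CTGF against control and -0.302 in control against wt. Without members sharing exon bases the cytosolic median of JTE + CTGF against control was 0.454. Leaving out Lars2 or the members sharing exon bases was chosen after seeing the data. The cause of these shifts was not tested.

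Replicate numbers were not used to pair the libraries. The correlations of deviations from group means ran from -0.37 to 0.548, and 0 of 10 group pairs had all above 0.1. Between control and JTE they were all positive, at 0.058, 0.357 and 0.548, so that pairing in that comparison was not settled. With a replicate block, 1 mitochondrial member was lower in JTE + CTGF against control, and of 216 member calls 3 were lost and 3 gained.

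Leaving out each library gave 3 to 7 cytosolic and 1 to 5 mitochondrial members lower in S1pr2 null against wt (mitochondrial median -0.087 to -0.039). Over all genes these fits called between 2809 (without wt 2) and 4729 (without JTE 3) in that comparison, against 4199 in the main fit. In JTE against control, 0 to 2 mitochondrial members were lower (median 0.113 to 0.174). In JTE + CTGF against JTE, 1 to 4 cytosolic members were higher, and 1 to 2 mitochondrial members were higher and 0 to 1 lower (median 0.081 to 0.115). In JTE + CTGF against control, 0 to 1 cytosolic and 1 to 2 mitochondrial members were lower (mitochondrial median 0.208 to 0.269). In control against wt, 0 to 3 mitochondrial members were higher. In the interaction, 1 to 2 cytosolic members were lower, with medians of 0.557 to 0.669 and 0.167 to 0.252. Over all genes the calls of these fits ran from 7776 to 8639 in JTE against control, against 8474 in the main fit. Those of JTE + CTGF ran from 3362 to 4978 against JTE (main fit 4941) and from 9047 to 10383 against control (main fit 9926). Those of control against wt ran from 8476 to 9708 (main fit 9389), and those of the interaction from 6270 to 7172 (main fit 6977). Of 3240 member calls so refitted 84 were lost and 50 gained. Depth limits the mitochondrial members most, since Mars2 held about 100 reads.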
